A study of Homo sapiens with 3 samples.

Results

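The 9 genes described here encode transcription factors and steroid receptors that mark the luminal and basal lineages of the mammary epithelium. ESR1, PGR, GATA3, FOXA1, ELF5, SPDEF and TFAP2C form the luminal group of 7 genes, and TP63 and SOX10 the basal group of 2 genes. All 9 were found by symbol among the 29689 genes listed, by a rule that names them and uses no measured value.

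RNAseq was analysed for 3 libraries, all from SUM-149 xenografts. SUM-149 is an established human cell line of triple-negative breast cancer (TNBC), the type that lacks ERα, the progesterone receptor and HER2 overexpression. The cells were implanted with Matrigel in the mammary glands of female Nu/Nu mice, an athymic strain that lacks mature T cells, and every tumor is of this 1 line and host. Treatment was with vehicle, with the CDK2 inhibitor dinaciclib for 10 days (CDK2i) or with the EZH2 inhibitor EPZ6438 for 10 days (EZH2i), with the drugs named as in the sample labels. For xenografts of this line a legend of the study names GSK343 instead, another inhibitor of EZH2, and which of both drugs the EZH2i tumor received is uncertain. The age of the mice is not given in the sources used here, and whether 1 or several animals stand behind a library is not stated. Below, a tumor means the tissue behind 1 library. There was 1 library per treatment, so no p-value was computed, and no value below has a replicate. The study asked whether blocking CDK2 or EZH2 moves TNBC cells from a basal toward a luminal state with expression of ERα.

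Luminal cells line the milk ducts and alveoli, and basal cells form the outer layer next to the basement membrane. In luminal cells ERα, FOXA1 and GATA3 work as a network: FOXA1 opens chromatin for ERα, ERα turns on PGR and other targets, and GATA3 is needed to form and keep the luminal state. ELF5 directs the milk-producing alveolar cells, while p63, the product of TP63, keeps basal cells in place through keratins, integrins and laminins. EZH2 is the enzyme of Polycomb repressive complex 2 that methylates lysine 27 of histone H3 (H3K27Me3) and thereby represses genes, often at promoters rich in CpG dinucleotides. CDK2 is a cyclin-dependent kinase that phosphorylates EZH2.

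H3K27Me3 was not analysed here, but because it acts at promoters, the 150 bases before a transcription start are shown for 3 genes on which the results turn. ESR1 is the gene the study set out to re-express, GATA3 was lower in both treated tumors, and TP63 had the highest level of the 9 genes in both. CpG dinucleotides are in capitals. The sequences come from the RefSeq promoter table on GRCh38.p14, and the same letters were found in GRCh37, the build of the deposited data, on the plus strand at chr6:152128667-152128816 for ESR1, chr10:8096501-8096650 for GATA3 and chr3:189349028-189349177 for TP63.
ESR1: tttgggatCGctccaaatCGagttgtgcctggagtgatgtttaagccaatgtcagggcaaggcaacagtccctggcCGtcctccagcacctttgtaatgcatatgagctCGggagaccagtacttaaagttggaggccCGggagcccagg
GATA3: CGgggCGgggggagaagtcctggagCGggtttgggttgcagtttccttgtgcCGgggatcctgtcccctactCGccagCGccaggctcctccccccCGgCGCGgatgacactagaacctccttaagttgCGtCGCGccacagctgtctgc
TP63: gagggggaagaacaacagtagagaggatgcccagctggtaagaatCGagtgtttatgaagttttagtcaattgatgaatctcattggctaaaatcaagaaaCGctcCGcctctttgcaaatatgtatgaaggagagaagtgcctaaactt
These windows hold 5 CpG dinucleotides for ESR1, 12 for GATA3 and 3 for TP63. Over the whole 250 bases before the start, GATA3 and FOXA1 held 26 CpG dinucleotides each, ESR1 held 11, TP63 and SPDEF 6 each, PGR 5 and ELF5 2. ESR1 and GATA3 have 6 windows each and PGR has 3, and only 1 window per gene was used. The median over all 35116 windows in the table was 11, so GATA3 and FOXA1 lay above 80.4% of the windows and TP63 above 38.1%. The TP63 window opens its longest transcript, and the start from which the shorter ΔN transcripts of basal cells are made lies elsewhere in the gene.

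The deposited values were log2 FPKM, that is, fragments scaled by gene length and library size, so levels are comparable between genes per length. The steps of low values gave depths of 16.8 M fragments (vehicle), 19.2 M (CDK2i) and 17.6 M (EZH2i). For ESR1, PGR, FOXA1, ELF5, SPDEF and SOX10 fragments are whole numbers fitted to all 3 libraries together with a gene length. Of the fits, the one with the length closest to the longest transcript was kept, and whether it is unique was not examined. The fitted length was 2855 nt against 3509 nt for FOXA1 and 2872 nt against 3468 nt for SOX10. Fragments are approximate for GATA3, TFAP2C and TP63. All 95% intervals below are exact Poisson or conditional intervals that cover counting error only. A gene was counted as changed when its fold change from vehicle was above 2 and the higher of both values was above 8 FPKM (log2 FPKM 3). In CDK2i 11.3% of the 6632 genes above this minimum passed, 3.27% higher and 8.07% lower. In EZH2i 13.4% of 7414 genes passed, 8.93% higher and 4.42% lower. The split of the changed genes moved with the scaling: 28.9% of them were higher in CDK2i and 66.9% in EZH2i as deposited, 41.1% and 38.8% with libraries centred on the median gene, 46.1% and 88.9% with equal summed FPKM, and 17.7% and 71.4% with equal sums without ribosomal protein and mitochondrially encoded genes. Over the 11109 expressed genes (mean log2 FPKM above 1 and no library at 0 fragments) the median log2 changes were −0.11 (CDK2i) and 0.19 (EZH2i), and changes below are as deposited and include these shifts. As a stand-in for replicate error, the spread of a gene is the SD of the log2 difference between the CDK2i and EZH2i tumors over 200 genes of like level, which holds drug effects as well as noise. Below, 3 values in a row stand for vehicle, CDK2i and EZH2i, and paired changes or medians for CDK2i and EZH2i.

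Only 3 of the 9 genes, GATA3, TFAP2C and TP63, were above 8 FPKM in any tumor and could be counted as changed. These are bulk tumors, in which fewer cells of a type cannot be told apart from less RNA per cell. In CDK2i 2 of the 3 passed, GATA3 and TFAP2C, both lower. In EZH2i 2 of the 3 passed as well, GATA3 lower and TP63 higher. With 3 genes these counts say little against the backgrounds of 11.3% and 13.4%. No luminal gene was counted as higher in either treated tumor, and the other 6 genes, ESR1 among them, lay at or below 1.10 FPKM in all tumors.

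**Figure D1:**
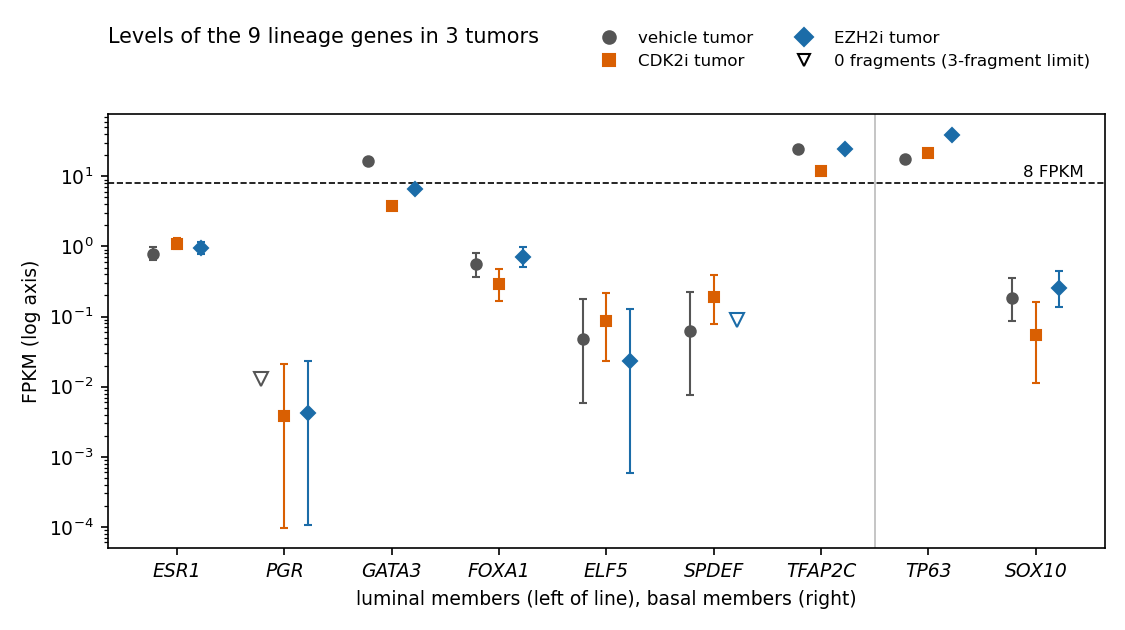
FPKM (log axis) of the 9 lineage genes in the vehicle, CDK2i and EZH2i tumors, 1 library each, with 95% Poisson intervals of the fragment count. Open triangles mark the limit set by 3 fragments where none was counted, and the dashed line is the minimum of 8 FPKM. GATA3, TFAP2C and TP63 lie at 3.75 FPKM or more in every tumor, while the other 6 genes lie at or below 1.10 FPKM.

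In the vehicle tumor the order of levels per length was TFAP2C (24.6 FPKM), TP63 (17.8), GATA3 (16.5), ESR1 (0.792), FOXA1 (0.562), SOX10 (0.186), SPDEF (0.0629), ELF5 (0.0486) and PGR (0). The counting intervals of TP63 (16.9 to 18.7) and GATA3 (15.4 to 17.6) overlapped, as did those of ESR1 and FOXA1 and those of each neighboring pair from SOX10 down. In CDK2i the order began with TP63 at 21.4 FPKM, TFAP2C at 11.9, GATA3 at 3.75 and ESR1 at 1.10, and no neighbors among these 4 had overlapping intervals. In EZH2i it began with TP63 at 39.0 FPKM, TFAP2C at 24.8, GATA3 at 6.66 and ESR1 at 0.953, again without overlap. TP63 thus stood between the other leading genes in vehicle and first in both treated tumors.

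GATA3 (chromosome 10 of GRCh37, 8087341 to 8117161, plus strand) encodes the zinc finger factor of luminal fate. Its level was 16.5, 3.75 and 6.66 FPKM in vehicle, CDK2i and EZH2i, from about 856, 222 and 360 fragments. Vehicle stood above both treated tumors, and the CDK2i tumor was the lowest. GATA3 ranked 3706 of all genes in vehicle, 8362 in CDK2i and 7750 in EZH2i. The log2 change was −2.14 in CDK2i (95% counting interval −2.36 to −1.92), which is 4.40-fold lower. In EZH2i it was −1.31 (−1.49 to −1.13), or 2.48-fold lower. Both changes were larger than the spread of 0.86, and GATA3 was counted as lower in both tumors under each of the 3 other scalings and with the trend over GC content and length removed. GATA3-AS1 (8092413 to 8095447, minus strand) lies within the GATA3 region on the other strand. Its values were 0.538, 0.260 and 0.180 FPKM, from 20, 11 and 7 fragments, also highest in vehicle. Whether counting kept the strands apart is not stated, so reads of the overlapping part cannot be told apart, although GATA3-AS1 held few fragments beside GATA3.

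TFAP2C (chromosome 20, 55204362 to 55214339, plus strand) encodes AP-2γ, a factor that supports ESR1 transcription in luminal cancer cells and is also made in other epithelia. Its level was 24.6, 11.9 and 24.8 FPKM in the same order of tumors, from about 1186, 651 and 1246 fragments. The CDK2i tumor was low, while vehicle and EZH2i did not differ beyond counting error. The log2 change in CDK2i was −1.06 (−1.19 to −0.92), or 2.08-fold lower, beyond the spread of 0.72 and just past the fold of 2. It was −0.94 with the libraries centred on the median gene, −0.91 with equal summed FPKM and −0.97 with the trend over GC content and length removed, and there TFAP2C was no longer counted. In EZH2i the change was 0.01 (−0.11 to 0.13). The paralog TFAP2A, which encodes AP-2α, was at 21.9, 11.8 and 29.8 FPKM, with changes of −0.90 and 0.44, and it passed in neither tumor.

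TP63 (chromosome 3, 189349178 to 189615065, plus strand) was the 1 basal gene with a substantial level. Its level was 17.8, 21.4 and 39.0 FPKM, from about 1479, 2028 and 3383 fragments. The EZH2i tumor was the highest of the 3 tumors, and its rank moved from 3507 in vehicle to 1685 in EZH2i. The log2 change in EZH2i was 1.13 (1.04 to 1.22), or 2.19-fold higher, against a spread of 0.61. It was 0.94 with the libraries centred on the median gene and 0.76 with the trend over GC content and length removed, so the count as changed was lost under both. TP63 has a longest transcript of 4944 nt with 42.4% GC. In CDK2i the change was 0.27 (0.17 to 0.36), within the spread. The table gives 1 value per gene, so TA and ΔN transcripts of TP63 could not be separated.

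ESR1 (chromosome 6, 151977826 to 152450754, plus strand), which encodes ERα, had levels of 0.792, 1.10 and 0.953 FPKM, from 86, 136 and 108 fragments. Both treated tumors had slightly higher values than vehicle. In CDK2i the log2 change was 0.47, and its counting interval of 0.07 to 0.88 lay above 0. In EZH2i it was 0.27 with an interval of −0.16 to 0.69, and −0.06 once the trend over GC content and length was removed. Neither change reached the spread of 1.43 for genes of this level. The rank of ESR1 was 14246 in vehicle, 12397 in CDK2i and 14169 in EZH2i, and TP63 stood 22.4-fold above it in vehicle, 19.5-fold in CDK2i and 40.9-fold in EZH2i. As far as counting goes, and in the deposited scaling only, a 2-fold higher ESR1 level lies above both intervals. With equal summed FPKM the changes were 0.62 in CDK2i and 0.51 in EZH2i. No interval was computed for that scaling, so a 2-fold higher level is not excluded there.

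PGR (chromosome 11, 100900355 to 101000544, minus strand), the progesterone receptor gene and a classic ERα target, had 0 fragments in vehicle, 1 in CDK2i and 1 in EZH2i. A count of 0 in vehicle allows up to 0.0130 FPKM at the limit of 3 fragments, and no fold is given. PGR was thus under 3 fragments in every tumor. FOXA1 (chromosome 14, 38058757 to 38065264, minus strand), which opens chromatin for ERα, was at 0.562, 0.292 and 0.718 FPKM, from 27, 16 and 36 fragments. CDK2i was the lowest of the 3 tumors for FOXA1. Its log2 change was −0.95 in CDK2i (−1.93 to −0.00019) and 0.35 in EZH2i (−0.41 to 1.13), both within the spread of 1.5.

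ELF5 (chromosome 11, 34500338 to 34546740, minus strand), the factor of alveolar cells, had 2 fragments in vehicle, 4 in CDK2i and 1 in EZH2i, or 0.0486, 0.0853 and 0.0233 FPKM. Its change in CDK2i was 0.81 with an interval of −1.99 to 4.28. SPDEF (chromosome 6, 34505579 to 34524110, minus strand), an ETS factor of luminal and secretory cells, had 2, 7 and 0 fragments, or 0.0629, 0.193 and 0 FPKM. The CDK2i tumor had the highest count of SPDEF, with a change of 1.62 and an interval of −0.77 to 4.92. Neither gene gave a usable fold in EZH2i, where both libraries compared held at most 3 fragments. SOX10 (chromosome 22, 38366693 to 38383429, minus strand), a neural crest factor also found in many basal-like cancers, was at 0.186, 0.0544 and 0.258 FPKM, from 9, 3 and 13 fragments. The change of SOX10 was −1.77 in CDK2i, past the spread of 1.63 but with an interval of −4.30 to 0.23, and 0.47 in EZH2i (−0.87 to 1.87). At this depth no difference of ELF5, SPDEF or SOX10 from vehicle was detectable, and the treated tumors were not tested against each other.

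**Figure D2:**
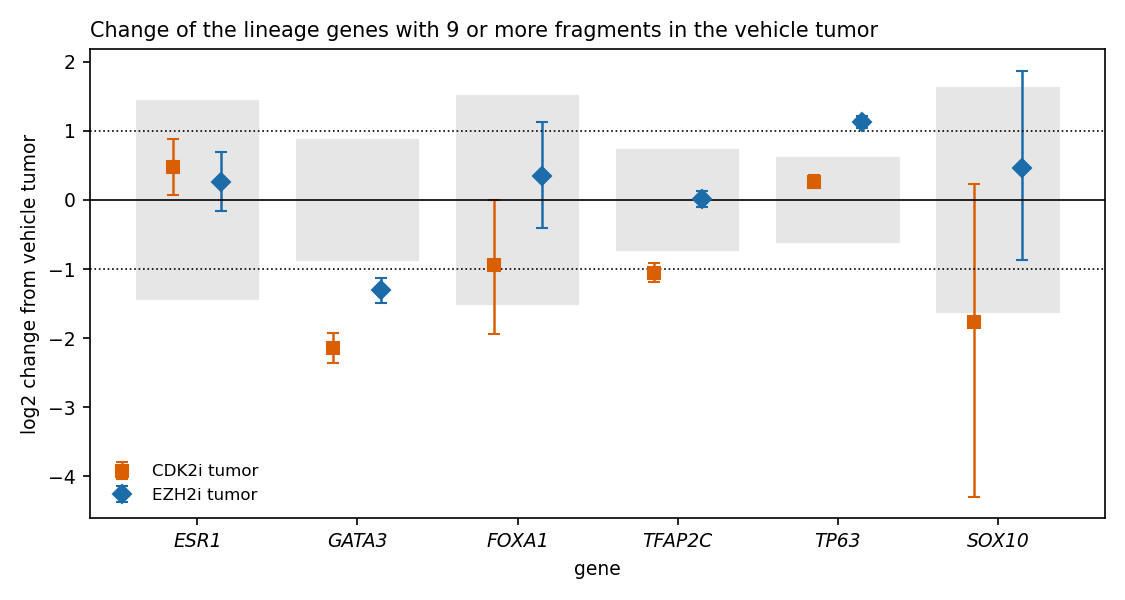
Log2 change from the vehicle tumor of the 6 genes with 9 or more fragments in vehicle, in CDK2i (squares) and EZH2i (diamonds), with 95% counting intervals. Grey bands are plus and minus the spread of genes of like level, and dotted lines mark a 2-fold change. Beyond both the band and the dotted lines lie GATA3 in both tumors, TFAP2C and SOX10 in CDK2i and TP63 in EZH2i, and the interval of SOX10 reaches past 0.

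Within a tumor, ratios between genes do not depend on how libraries were scaled to each other. These pairs were chosen after the values were seen. The ratio of TP63 to GATA3 in FPKM was 1.08 in vehicle, 5.70 in CDK2i and 5.85 in EZH2i, so both treated tumors were high. On the log2 scale it moved by 2.40 in CDK2i and 2.44 in EZH2i, and by 2.34 and 1.87 with the trend over GC content and length removed. The CDK2i shift came mostly with a lower GATA3 level and the EZH2i shift with both a lower GATA3 and a higher TP63 level. TP63 over TFAP2C was 0.722, 1.80 and 1.57, with shifts of 1.32 in CDK2i and 1.12 in EZH2i, the latter 0.65 with the trend removed. Both treated tumors are set against the same vehicle library, so their shifts are not independent of each other.

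The summed FPKM of the 7 luminal genes was 42.6 in vehicle, 17.3 in CDK2i and 33.2 in EZH2i, and that of the 2 basal genes 18.0, 21.4 and 39.2. As deposited, the sum of these luminal genes was above that of these basal genes in vehicle and below it in both treated tumors. With the trend over GC content and length removed, the CDK2i sums were 18.1 luminal and 21.4 basal, while the order in EZH2i turned, with 35.9 luminal against 30.5 basal. TP63 made up 29.4% of the 9 genes' sum in vehicle, 55.2% in CDK2i and 53.8% in EZH2i. GATA3 made up 27.3%, 9.69% and 9.20%, and TFAP2C 40.7%, 30.6% and 34.3%. These 3 genes together held between 95.5% and 97.3% of the sum, and the other 6 genes the rest. With the trend removed, the TP63 share was 54.0% in CDK2i and 45.4% in EZH2i, and the GATA3 share 9.89% and 11.6%. The order of these sums holds for the 9 genes only. In vehicle the other luminal factors described below summed to 646 FPKM and the other basal factors to 1208 FPKM. The luminal markers summed to 2183 FPKM there and the basal-like markers to 8578 FPKM.

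**Figure D3:**
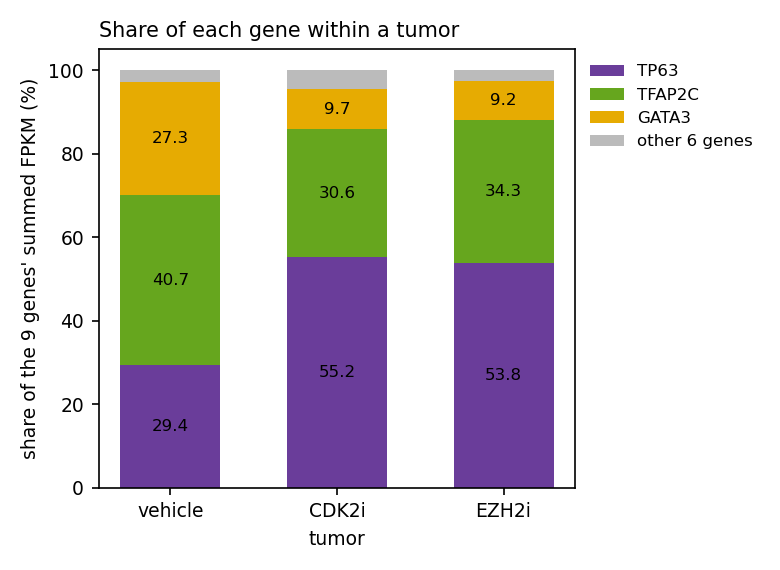
Share of each gene (%) in the summed FPKM of the 9 lineage genes within the vehicle, CDK2i and EZH2i tumors, 1 library each. The TP63 part grows from 29.4% in vehicle to 55.2% in CDK2i and 53.8% in EZH2i, while the GATA3 part shrinks from 27.3% to 9.69% and 9.20%.

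The 21 listed paralogs of the 9 genes did not move as 1 group. Of the 8 that could pass in CDK2i, ELF3 was higher and ELF1 and TP73 were lower (37.5% changed, background 11.3%). The median log2 change of the expressed paralogs was −0.37 there. Of 9 in EZH2i, ELF3 was lower and none was higher (11.1% changed, background 13.4%), with a median of 0.29. ELF3, an epithelial ETS factor, was at 13.0, 43.0 and 3.60 FPKM, with changes of 1.73 and −1.85, so the treated tumors lay on opposite sides of vehicle. TP73, a paralog of TP63, was at 9.93, 2.43 and 5.42 FPKM, with changes of −2.03 and −0.87. SOX9, a SOX10 relative of luminal progenitors, was at 67.0, 126 and 63.4 FPKM, well above SOX10, with changes of 0.91 and −0.08. It is nonetheless listed with the other basal factors below and enters their medians.

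Among 30 steroid and other nuclear receptors, NR4A1, NR4A2 and NR1D1 passed as higher in CDK2i and RARA as lower. That is 30.8% of the 13 that could pass, beside a background of 11.3%. None of 13 passed in EZH2i (background 13.4%). NR4A1, an immediate early orphan receptor, was at 16.1, 140 and 16.5 FPKM, high in the CDK2i tumor alone. RARA, a retinoic acid receptor induced by ERα in luminal cells, was at 10.2, 2.73 and 10.0 FPKM. The median changes over the receptors were 0.01 and −0.13.

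Of 24 other luminal factors, 14 could pass in CDK2i, where HES1, BHLHE40 and ELF3 were higher and XBP1 and ZNF217 lower. The share changed was 35.7%, beside a background of 11.3%. HES1, a Notch target, was at 81.0, 418 and 64.6 FPKM, with a change of 2.37 in CDK2i. XBP1, a secretory factor induced by ERα, was at 23.9, 8.80 and 36.1 FPKM, with changes of −1.44 and 0.59. ZNF217 changed by −1.08 in CDK2i and kept its call in 2 of the 4 alternatives of scaling and trend. Of 16 that could pass in EZH2i, GRHL3 was higher (1.65) and ELF3 lower (12.5% changed, background 13.4%). The medians were 0.08 in CDK2i and 0.11 in EZH2i, beside −0.11 and 0.19 over all expressed genes.

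Of 24 other basal factors, 17 could pass in CDK2i, where EGR2 and IRX4 were higher and EN1 and TP73 lower. The share changed was 23.5%, beside a background of 11.3%. EN1, a homeobox factor of basal-like cancer, was at 26.1, 5.74 and 13.1 FPKM, with changes of −2.19 and −0.99. IRX4 changed by 1.33 in CDK2i, a call kept in 3 of 4 alternatives. In EZH2i NFIB was higher (1.16, kept in 2 of 4) and FOXC1 lower (−1.22, kept in 3 of 4). That is 12.5% of the 16 that could pass, beside a background of 13.4%. FOXC1, a forkhead factor typical of basal-like TNBC, was at 51.0, 63.9 and 21.8 FPKM. The medians were −0.05 and 0.04.

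Readouts of ERα were sparse. Of 22 ERα target genes, 10 could pass. As deposited, XBP1 and RARA were lower in CDK2i and CTSD in EZH2i, with none higher in either. With 3.27% and 8.93% of all genes higher, 0 of 10 says little. It also moved with the scaling in EZH2i. With equal summed FPKM 2 targets, NRIP1 and SLC39A6, were higher there. In that scaling 20.4% of all genes passed, 88.9% of them higher. With equal sums without ribosomal protein and mitochondrially encoded genes 1 target, SLC39A6, was higher. CTSD, the lysosomal protease cathepsin D, was at 273, 432 and 118 FPKM, and its change of −1.21 in EZH2i kept the call in 2 of 4 alternatives. The median changes were 0.04 and 0.22, against −0.11 and 0.19 over all expressed genes. GREB1, a target closely tied to ERα activity, was at 0.218, 0.148 and 0.0673 FPKM. Other targets moved the other way, without passing as deposited. NRIP1 was at 2.74, 3.42 and 7.19 FPKM, and SLC39A6 at 35.4, 62.5 and 69.9 FPKM. Their changes were 0.32 and 1.39 for NRIP1 and 0.82 and 0.98 for SLC39A6, against spreads of 0.89 and 0.70. Of 18 ERα coregulators, TLE3 was lower in CDK2i (−1.45) and MED1 higher in EZH2i (1.09, kept in 2 of 4). Of 11 and 14 that could pass, 9.09% and 7.14% changed, beside backgrounds of 11.3% and 13.4%. Their medians were −0.13 and 0.39.

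The p63 target genes were well expressed, and all 24 entered the medians. In CDK2i 8 of the 23 that could pass were higher (34.8%, background 3.27%) and 1, TP73, was lower, and the median change was 0.73 against −0.11 over all expressed genes. KRT14, a keratin of basal cells, was at 2458, 6269 and 2541 FPKM. The CDK2i tumor was high for KRT14, with a change of 1.35, and so it was for KRT6A (1.31), KRT5 (1.17), ITGA6 (1.32), LAMA3 (1.26), SFN (1.14), FERMT1 (1.10) and COL17A1 (1.03). Of these calls, SFN and FERMT1 kept theirs in 3 of the 4 alternatives and COL17A1 in 2, and the others in all 4. TP63 itself changed by 0.27 there. In EZH2i 5 of 24 were higher (20.8%, background 8.93%) and none lower, with a median of 0.16 that ran from −0.03 to 0.46 over the other scalings and the trend, against 0.19 over all expressed genes. LAMA3 (2.15), FERMT1 (1.93), ITGA6 (1.73), DST (1.36, kept in 3 of 4) and DSC3 (1.05, kept in 2 of 4) were higher there, genes of the hemidesmosome, the basement membrane and cell adhesion, while KRT5 (−0.18) and KRT14 (0.05) did not pass. LAMA3 encodes a chain of laminin-332 and stood at 15.0, 35.9 and 66.9 FPKM. The list was drawn up with earlier results of these data known, so its counts are no independent evidence of a direction.

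SOX10 targets and ELF5 targets offered few measurable genes. Of 15 SOX10 target and neural crest genes, 3 could pass, and CRYAB was higher in CDK2i, at 10.2, 24.7 and 10.6 FPKM. CRYAB encodes a small heat shock protein. None of the 3 passed in EZH2i. Of 9 ELF5 target and milk genes, 2 could pass, WFDC2 and SLPI, and SLPI was lower in EZH2i (−1.05, kept in 2 of 4). SLPI, a secreted protease inhibitor, was at 317, 484 and 153 FPKM.

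**Figure D4:**
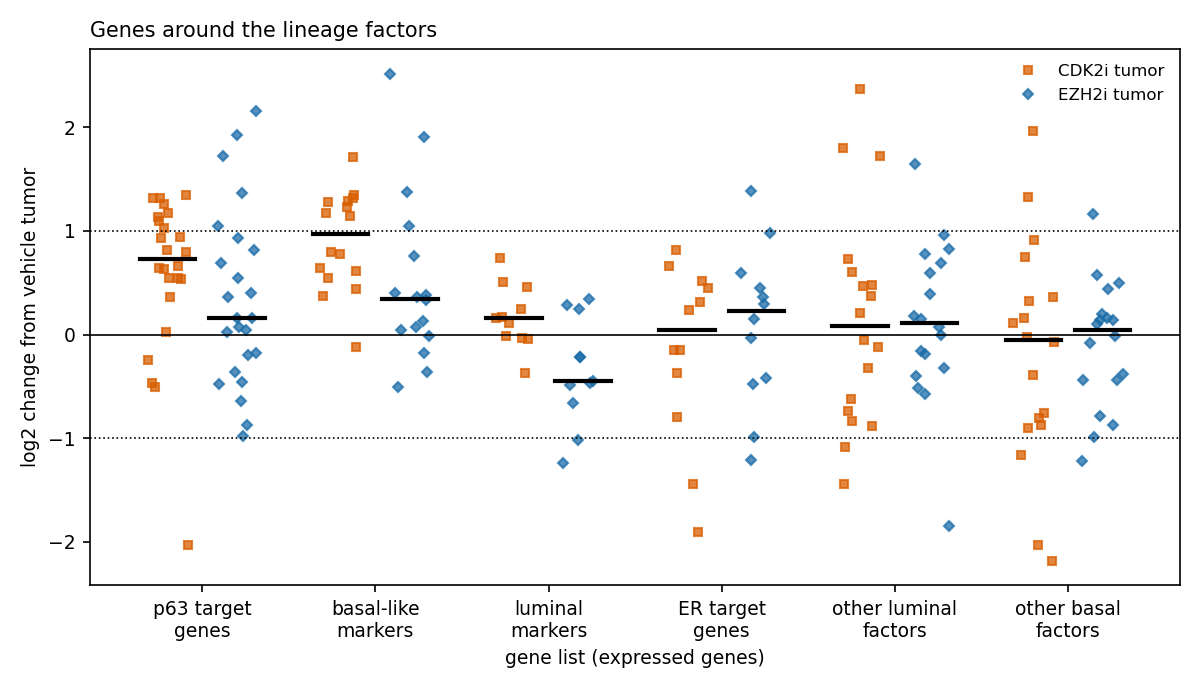
Log2 change from the vehicle tumor of the expressed genes (mean log2 FPKM above 1, no library at 0) of 6 gene lists, in CDK2i (squares) and EZH2i (diamonds). Each point is 1 gene, black bars are medians, and dotted lines mark a 2-fold change. The CDK2i medians are 0.73 for p63 target genes and 0.97 for basal-like markers, lists that share genes such as KRT5 and KRT14. The CDK2i median of the luminal markers is 0.16. Those of ERα target genes and of the other luminal and basal factors lie between −0.05 and 0.08.

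The lineage markers checked the epithelial label of the tumors. EPCAM was at 66.3, 74.0 and 81.0 FPKM, and keratins of both lineages were high, with KRT8 at 169, 200 and 121 FPKM and KRT5 at 1873, 4217 and 1653 FPKM. Of 16 basal-like markers, 8 of 15 that could pass were higher in CDK2i (53.3%, background 3.27%) and 4 of 16 in EZH2i (background 8.93%), with none lower. Their medians were 0.97 and 0.34, against −0.11 and 0.19 over all expressed genes. KRT16, a keratin of activated epithelium, had the largest change of these in CDK2i (1.72), and MET, a receptor tyrosine kinase, in EZH2i (2.52). The list of basal-like markers was also drawn up with earlier results of these data known. It shares KRT5, KRT14, KRT6A and others with the p63 targets, so its counts are no independent evidence of a direction. Of 14 luminal markers, 10 could pass. None of them passed in CDK2i (background 11.3%). In EZH2i KRT19 (−1.24, kept in 2 of 4) and CLDN4 (−1.02, kept in 1 of 4) were lower (20%, background 4.42%). The medians were 0.16 and −0.45. The EZH2i median of the luminal markers ran from −0.64 to 0.04 over the alternatives. KRT18 (29.6, 42.1 and 35.1 FPKM) and CDH1 (32.6, 44.8 and 41.3 FPKM) were higher in both treated tumors without passing. PROM1 and KIT, too low to be counted, changed by 1.825 and 1.811 in CDK2i, beyond their spreads of 1.58 and 1.62. In EZH2i they changed by −1.90 and −0.61. Of 10 contractile genes of myoepithelial cells, 5 lay below 1 FPKM in all tumors, MYH11 and CNN1 among them, and ACTA2 was at 0.610, 0.803 and 1.04 FPKM. TPM2 (58.1, 51.6 and 62.2 FPKM) and CALD1 (30.5, 37.7 and 49.8 FPKM) were well expressed, and neither passed in either tumor.

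By their 2 log2 changes, the genes closest to each changed member among 6229 genes with a mean log2 FPKM above 3 were GAS5, EN1 and IRX3 for GATA3, MAGEF1, C19orf25 and TRIB3 for TFAP2C, and ROCK1, NUP205 and NIN for TP63. Closeness was Euclidean distance over 2 changes from 3 tumors. The nearest gene lay at 0.277 from GATA3, 0.0272 from TFAP2C and 0.0431 from TP63. GAS5, a noncoding snoRNA host gene, changed by −2.16 in CDK2i and −1.03 in EZH2i.

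Markers of other cell types were set beside these values, since the tumors grew in mice, the human genome is the reference named, and whether mouse reads were set apart is not given in the sources used here. Summed FPKM in vehicle, CDK2i and EZH2i was 25.3, 39.6 and 31.1 for 10 fibroblast markers. It was 0.952, 0.750 and 0.856 for 6 endothelial markers and 3.45, 3.15 and 2.37 for 6 macrophage markers. LUM was the 1 fibroblast marker counted as changed, higher in CDK2i, while THY1 was at 0 in all tumors. The 7 T cell markers summed to 3.97, 3.51 and 8.95, most of it IL7R in EZH2i, with CD3D, CD3E and CD3G at or below 0.0663. The 5 adipocyte markers summed to 34.9, 20.1 and 7.07, mostly FABP4 in vehicle and CDK2i (32.6 and 18.6), which was lower in EZH2i (3.03), where LPL was at 3.53, with ADIPOQ at or below 0.0113. The 9 Schwann cell and melanocyte markers summed to 13.5, 16.2 and 18.8, mostly PMP22, with S100B at 0 in all tumors. The part of these markers in the changes of GATA3, TFAP2C and TP63 was not tested.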

How the data were processed

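Total RNA of SUM-149 xenograft tumor tissue was sequenced in 3 libraries. The authors mapped reads to GRCh37/hg19 and deposited log2 FPKM for 29689 gene symbols, with −9 where the FPKM appears to be 0. The submitters' processing notes name CASAVA and STAR without versions, and the counting tool, its strand setting and its gene lengths are not given in the sources used here. Whether mouse reads were set apart is not given there either.

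From these values the log2 difference of each treated tumor from vehicle was computed with Python 3.11.15, numpy 2.4.6, pandas 2.3.3 and scipy 1.17.1, and figures were drawn with matplotlib 3.10.9. A gene was counted as changed at a fold above 2 with the higher value above log2 FPKM 3, the study's thresholds for its gene lists. Its limma p-value was not repeated with 1 library per treatment. Depth was scanned from whole-fragment steps of low genes with a single transcript, which gave 16.8, 19.1 and 17.5 M in vehicle, CDK2i and EZH2i. At these depths 77.6%, 77.6% and 76.8% of 1248, 1359 and 1295 genes fell within 0.02 of a whole fragment, against about 1% at other depths. The scanned depth was used for vehicle only. The depths used for CDK2i and EZH2i, 19.2 and 17.6 M, came from the vehicle depth and the most frequent ratio of low values (704 and 671 genes). The fold and interval steps were run on simulated data. For the fold step the simulated noise was set well below the spreads given above. That run checks the computation only and gives no error rate for these tumors. Coordinates and transcript lengths come from GENCODE 44 on GRCh37, in which 18852 symbols were matched. Promoter windows come from RefSeq, with TFAP2C and SOX10 not among those used, and sequences of proteins were not used here.

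Text names all 9 genes, up to 4 changed genes per list and direction with the largest changes (for p63 targets and basal-like markers, further ones named after their values were seen), the most highly expressed genes of lists without one, paralogs by level, and the 3 genes nearest in pattern to each changed member. GATA3-AS1, GREB1, NRIP1, SLC39A6, KRT18, CDH1, PROM1, KIT and the ratios were picked after values were seen. EPCAM, KRT8, ACTA2, MYH11, CNN1 and markers of other cell types such as THY1 and ADIPOQ were also named outside these rules. The members and the 20 lists were chosen with earlier results of these data known, and several lists share genes, among them TP73, XBP1, RARA, ELF3 and the keratins. Alternatives covered the fold, the expression minimum, the pseudocount, scaling and a trend over GC content and length fitted on 9503 genes. Some genes of the lists are not reported here.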

Additional observations from a re-analysis of the deposited data

How the results depend on the processing

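In CDK2i 2 of the 9 genes were counted as changed, GATA3 and TFAP2C. The count was 1, GATA3 alone, at a fold of 3, with a pseudocount of 1 FPKM, with libraries centred on the median expressed gene, with equal summed FPKM and with the trend over GC content and length removed. It was 0 with a minimum of log2 FPKM 5. Without a minimum it was 4, adding SPDEF at 7 fragments and SOX10 at 3. In EZH2i 2 genes were counted, GATA3 and TP63. The count was 0 at a fold of 3. It was 1 with a minimum of log2 FPKM 5 (TP63), after centring (GATA3) and with the trend removed (GATA3). Without a minimum it was 5, adding PGR, ELF5 and SPDEF, none above 2 fragments in the tumors compared. The other alternatives kept both counts at 2: a fold of 1.5, a minimum of log2 FPKM 1, a pseudocount of 0.1 FPKM and equal sums without ribosomal protein and mitochondrially encoded genes, and for EZH2i also a pseudocount of 1 FPKM and equal sums. All 84 changes of single members under the alternatives moved by less than the spread. PGR and SPDEF had no spread and are not among them. For the scalings this outcome was fixed beforehand, since every shift was smaller than the smallest spread, 0.61 for TP63. ESR1 in EZH2i still turned from 0.27 to −0.06 with the trend removed. The count over all genes, 752 in CDK2i and 990 in EZH2i, was 1947 and 2710 at a fold of 1.5, 250 and 186 at a fold of 3, 11703 and 10795 without a minimum, 2037 and 2231 with a minimum of log2 FPKM 1, and 196 and 262 with one of 5. For EZH2i it was 1621 with equal sums and 561 with the trend removed. Scaling removed log2 shifts of −0.11 and 0.19 (median), −0.15 and −0.24 (sums) or 0.14 and −0.04 (sums without ribosomal protein and mitochondrial genes). No paired analysis was possible because there was 1 library per treatment, and for the same reason no replicate could be left out. Genes under about 10 fragments, ELF5, PGR, SPDEF and SOX10, are limited by depth.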

Other observations

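Some genes of the lists lay below 8 FPKM in all tumors, could not be counted as changed, and still differed by more than their spread. They were picked after their values were seen. PRLR, the prolactin receptor gene listed with ELF5 targets, was at 0.423, 0.353 and 3.26 FPKM in vehicle, CDK2i and EZH2i, from about 82, 78 and 662 fragments. The EZH2i tumor alone was high, with a log2 change of 2.94 (95% counting interval 2.62 to 3.30) against a spread of 1.51. MYB, an ERα target and luminal factor, had 68, 7 and 80 fragments and was low in CDK2i alone, with a change of −3.47 (−4.84 to −2.35) against a spread of 1.62. ROPN1, listed with SOX10 targets, had 89, 67 and 18 fragments and was lowest in EZH2i, with a change of −2.37 (−3.19 to −1.63) against a spread of 1.28. It has a close copy, ROPN1B, whose values were 2.18, 2.47 and 1.39 FPKM, and how reads shared by both copies were counted is not given in the sources used here, so both values are uncertain.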
